A study of Mus musculus with 4 samples.

Results

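The 35 genes described here copy DNA or divide chromosomes, and their messenger RNAs mark cells that are passing through the cell cycle. They were chosen by name, as the rows of the gene tables whose symbols matched a list of S phase and mitosis genes. All 35 of 35 were found among the 32285 genes of each table. The list has 6 subunits of the MCM helicase, 6 genes of replication and nucleotide supply, 4 genes for cyclins and Cdk1, 4 for mitotic kinases and Birc5, 5 for centromeres and the spindle checkpoint, 5 for the spindle and chromosome structure, 3 for the anaphase-promoting complex, and Stmn1 with Hmgb2.

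The data were droplet single-cell RNA counts from mice deficient in Ndufa4 and from wild-type mice, written KO and WT below. Ndufa4 encodes a protein of cytochrome c oxidase, complex IV of the mitochondrial respiratory chain. Every group came from 8-week-old male C57BL/6 mice, 18 days after B16-F10, a transplantable melanoma line, was placed under the skin. There were 4 libraries, 1 each for KO tumour, WT tumour, KO spleen and WT spleen, holding CD45+ cells of the tumour or CD45+CD11b+ cells of the spleen. CD45 marks leukocytes and CD11b is an integrin of myeloid and NK cells. Each library was a pool of equal cell numbers from 3 mice per genotype by the design text, while the protocol allows up to 4. The labels give no more on the deletion than the gene, so the cells it acts in were not taken as known, and the implanted tumour cells were not of the mice's genotype. With 1 pooled library a group, no difference between genotypes could be tested, and every interval below covers counting error at the 95% level only.

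Cells divide in a fixed order. In late G1, E2F transcription factors turn on the replication genes, among them the MCM helicase, the PCNA clamp and the enzymes that make deoxynucleotides. In G2 and mitosis, the B-MYB and FOXM1 complexes turn on cyclin B, the Aurora and Polo kinases and the kinetochore genes. They act through CHR and CCAAT elements near the start site. Most circulating and splenic leukocytes are resting. Antigen-driven lymphocytes, granulocyte and erythroid precursors, dendritic cells and some tissue macrophages do divide.

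On GRCm38, in the GENCODE annotation, Mki67 lies on the minus strand of chromosome 7 at 135689784 to 135716361, Top2a on the minus strand of chromosome 11 at 98992943 to 99024189, Cdk1 on the minus strand of chromosome 10 at 69335146 to 69352938, and Mcm6 on the minus strand of chromosome 1 at 128331590 to 128359664. Their promoters are printed below because they hold the words in which the mitosis and the replication genes differ. Each runs from 250 bases before to 50 bases after the annotated start, as given by RefSeq on GRCm38.p6, 5′ to 3′ on the gene's strand. The windows are chr7:135716330-135716629, chr11:99024140-99024439, chr10:69352863-69353162 and chr1:128359656-128359955. Capitals mark matches on either strand. The CHR element was searched as TTTGAA and the CCAAT box by its name. The first E2F word was TTGGCGC. A second form of it was TTCCCGC. Another form searched was TTCGCGC. The last form searched was TTGCCGC.
Mki67: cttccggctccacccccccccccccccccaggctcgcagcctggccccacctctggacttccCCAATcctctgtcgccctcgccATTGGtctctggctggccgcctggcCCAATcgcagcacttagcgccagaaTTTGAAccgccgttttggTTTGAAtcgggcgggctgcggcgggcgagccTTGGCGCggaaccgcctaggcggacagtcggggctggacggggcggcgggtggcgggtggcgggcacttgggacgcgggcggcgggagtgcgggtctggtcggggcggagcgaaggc
Top2a: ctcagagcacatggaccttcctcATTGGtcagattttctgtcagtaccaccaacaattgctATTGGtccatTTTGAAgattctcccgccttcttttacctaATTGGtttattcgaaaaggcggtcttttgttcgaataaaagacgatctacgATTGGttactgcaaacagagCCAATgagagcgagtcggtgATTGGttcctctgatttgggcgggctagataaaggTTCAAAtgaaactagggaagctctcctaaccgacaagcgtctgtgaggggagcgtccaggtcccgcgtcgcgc
Cdk1: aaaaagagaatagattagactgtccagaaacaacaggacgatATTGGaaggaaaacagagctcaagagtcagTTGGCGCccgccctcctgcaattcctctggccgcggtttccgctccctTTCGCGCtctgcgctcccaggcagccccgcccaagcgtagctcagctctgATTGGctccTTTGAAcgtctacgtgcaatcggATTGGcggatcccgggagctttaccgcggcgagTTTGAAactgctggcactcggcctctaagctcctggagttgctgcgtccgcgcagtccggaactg
Mcm6: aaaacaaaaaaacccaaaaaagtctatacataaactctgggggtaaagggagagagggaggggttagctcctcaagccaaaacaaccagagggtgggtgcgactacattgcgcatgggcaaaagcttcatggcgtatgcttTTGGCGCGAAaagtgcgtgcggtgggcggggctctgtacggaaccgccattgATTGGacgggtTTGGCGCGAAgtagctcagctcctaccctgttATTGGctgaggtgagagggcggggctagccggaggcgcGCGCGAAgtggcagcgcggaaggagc

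The mitosis and the replication genes carried different words. A CHR element was found in 13 of the 18 mitosis genes with a promoter entry and in 1 of the 11 replication genes, against 20.23% of 27025 genes in the table. Both CHR and CCAAT were present in 72.22% of the mitosis genes and in 9.091% of the replication genes, against 8.973% of all genes. An E2F word was found in 7 of 11 replication genes (63.64%) and in 3 of 18 mitosis genes (16.67%), against 10.86% of all genes. CCAAT alone was common to both, in 9 of 11 and 16 of 18, against 41.06% of all genes. Overlapping E2F words were counted separately, 5 in Mcm6, 2 in Cdk1, 1 in Mki67 and 0 in Top2a. A match is a match of letters and does not show that a factor binds. Mcm4, Aurkb, Stmn1 and Ccna2 had no entry in the table, so 31 of 35 members were searched.

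Ndufa4 stood at 15.6 CPM (unique molecular identifiers, UMIs, of a gene scaled to a common total) in KO tumour cells and 330 CPM in WT tumour cells, and at 0.638 and 268 CPM in KO and WT spleen cells. After filters, 4483 KO and 3890 WT tumour cells and 6565 KO and 7076 WT spleen cells were kept, with median depths of 10251, 7214, 4309 and 4647 UMIs. Ptprc, the gene of CD45, had a UMI in 97.7% of KO and 89.3% of WT tumour cells, and Itgam, the gene of CD11b, in 75.2% of KO and 80.1% of WT spleen cells. Between 31 and 53 barcodes of a library, 0.603% to 0.702%, were also present in another library. The mitochondrial limit took 1420 barcodes from the KO tumour and 685 from the WT tumour, and 792 from the KO spleen and 543 from the WT spleen. Cells were clustered without the listed cycle genes, and cycle genes outside the lists were not removed. A class name such as CD8 T cell stands for cells that resemble it by marker genes.

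A cell was called cycling after thinning to 2000 UMIs, so that deep and shallow cells could be compared. The call needed at least 4 UMIs from at least 2 genes of an S list of 12 members (the MCM subunits, Pcna, Pclaf, Tyms, Rrm1, Rrm2, Tk1), or at least 3 UMIs from at least 2 genes of a mitosis list of 20 members. Stmn1, Hmgb2 and Fbxo5 took no part. Cells under 2000 UMIs were left out, 195 KO and 418 WT cells in tumours and 523 KO and 682 WT cells in spleens. The call is a threshold on a range: 245 KO and 171 WT tumour cells lay just under it and 107 KO and 46 WT tumour cells just at it. It reads messages, not DNA content.

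In tumours 523 of 4288 KO cells (12.2%) and 243 of 3472 WT cells (6.999%) were cycling, a difference of 5.20 percentage points (3.89 to 6.49). In spleens the shares were 246 of 6042 KO cells (4.07%) and 156 of 6394 WT cells (2.44%), a difference of 1.63 points (1.01 to 2.27). Class makeup differed between the libraries. CD8 T cells held 66.9% of the cycling tumour cells in KO and 46.9% in WT, and macrophages 1.72% in KO and 27.2% in WT. When both tumour libraries were given the KO makeup of 18 classes the shares were 12.2% KO and 11.8% WT, and with the WT makeup they were 6.75% KO and 6.999% WT. With the KO makeup of 14 spleen classes the shares were 4.07% KO and 4.53% WT, and with the WT makeup 2.05% KO and 2.44% WT. With classes weighted alike the differences were 0.385 and -0.244 points in tumours and -0.454 and -0.387 points in spleens, a weighting chosen after the values were seen. In a whole class, fewer cycling cells and less cycle RNA per cell cannot be told apart from a summed level alone.

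Comparison class by class was possible for 14 tumour and 9 spleen classes with at least 50 cells in both libraries. In 3 of these 23 classes the interval of the KO minus WT difference left out 0: regulatory T cells and macrophages of the tumour and erythroid cells of the spleen. Intervals were not widened for the number of classes.

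**Figure D1:**
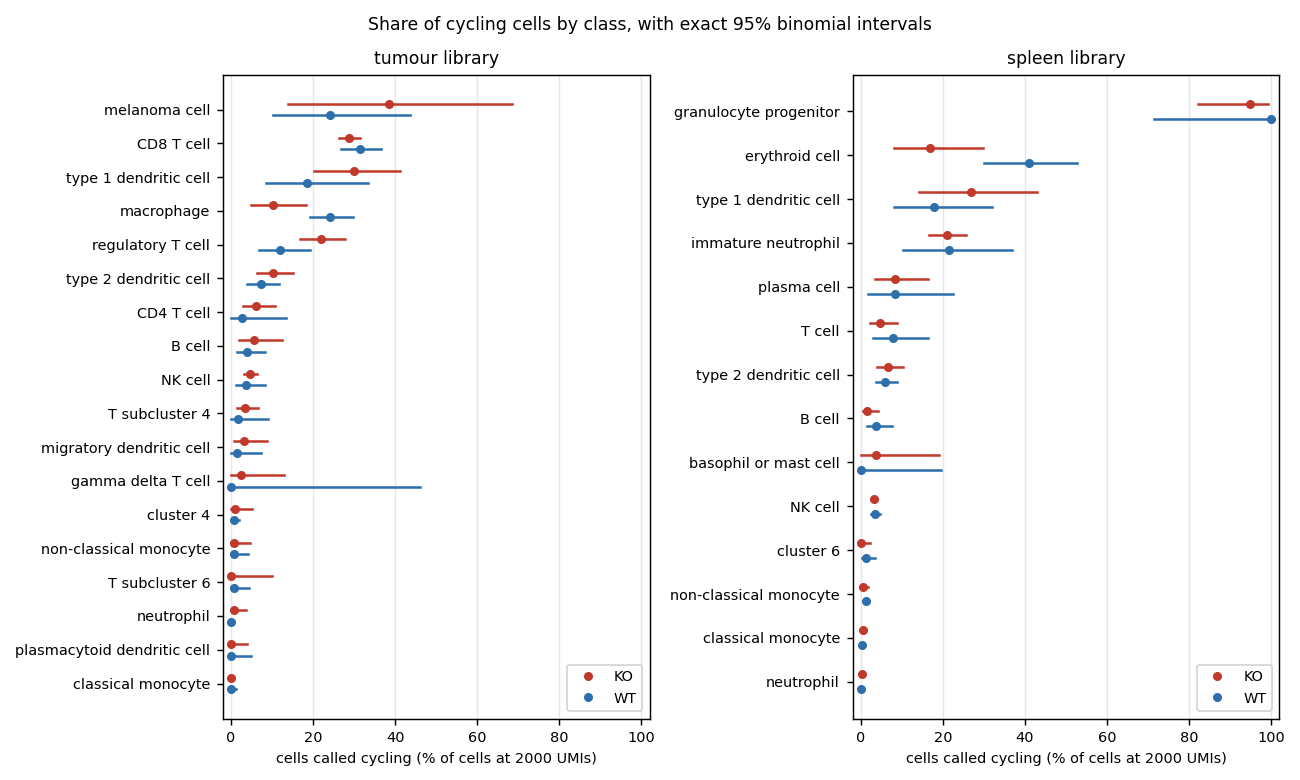
Share of cells called cycling at 2000 UMIs in each class (x axis, percent) of the tumour (left) and spleen (right) libraries, KO in red above WT in blue, with exact 95% binomial intervals. Granulocyte progenitors lie at 94.7% in KO and 100% in WT, tumour CD8 T cells at 28.7% and 31.4%, and tumour classical monocytes at 0 in both.

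The background of the call was read from cells that mostly do not divide. No tumour classical monocyte was cycling, 0 of 593 KO cells and 0 of 299 WT cells, which allows shares of up to 0.506% and 1.00% (3 counts of the total; the exact upper limits are 0.620% and 1.23%); their median depths were 14635 and 14994 UMIs. This rests on how the class was drawn: 0.640% of KO and 3.24% of WT cells were cycling with another clustering seed, 0.554% and 3.06% with doublets kept, and 0.371% and 1.70% without a mitochondrial limit. Tumour neutrophils gave 1 of 147 KO cells (0.680%) and 0 of 797 WT cells at median depths of 3630 and 3533 UMIs. Single UMIs were seen in them: Mki67, the proliferation marker that coats mitotic chromosomes, had a UMI in 1.85% of KO and 1.00% of WT classical monocytes after thinning. Pcna, the sliding clamp of DNA polymerases, had 1 in 13.8% and 18.7% of them, so a lone Pcna UMI is no sign of cycling here.

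CD8 T cells were the largest cycling population of the tumour. Of the thinned cells, 350 of 1218 KO cells (28.7%, 26.2 to 31.4) and 114 of 363 WT cells (31.4%, 26.7 to 36.5) were cycling. The difference was -2.67 points (-8.20 to 2.58), so no genotype difference was detectable at this depth. With a looser threshold the shares were 35.3% KO and 41.9% WT (-6.57, -12.3 to -0.906), and with a single UMI of Mki67 or Top2a 31.2% KO and 38.8% WT (-7.64, -13.3 to -2.09); under these 2 rules the interval left out 0. Just under the threshold lay 112 KO and 43 WT cells. Different subclusters held the class in the 2 libraries. Subcluster 0, led by Styk1, made up 46.9% of KO and 9.46% of WT CD8 T cells, while subcluster 7, led by Adgrg1 and Gzmk, made up 2.69% and 33.8%. Subcluster 1, whose leading genes are histones and Pclaf, held most cycling cells, 288 of 350 in KO and 102 of 114 in WT. Its share of cycling cells was 80.4% in KO (76.0 to 84.4) and 69.9% in WT (61.7 to 77.2). Cycle genes lead this subcluster, so these shares are tied to how it was drawn. Outside it, subcluster 0 gave 8.77% KO and 14.7% WT, subcluster 3 3.86% KO and 1.64% WT, and subcluster 7 6.45% KO and 4.92% WT.

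The phases of cycling CD8 T cells were close in the 2 libraries. Past the S threshold only were 70 of 350 KO and 27 of 114 WT cycling cells, past both 50.6% and 47.4%, and past the mitosis threshold only 29.4% and 28.9%. Every interval of a KO share overlapped that of its WT share. The T cell markers were at a median of 5581 CPM over KO and 4966 CPM over WT cycling cells, and the macrophage markers at 21.9 and 30.2 CPM.

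None of the 35 members differed by 1.5-fold between KO and WT CD8 T cells, where 8.27% of 11957 measured genes were that much higher and 7.34% that much lower in KO. Their median log2 KO/WT ratio was -0.05, against -0.04 over all measured genes. Of the replication genes, Tyms (thymidylate synthase) stood at 70.7 CPM in KO and 87.0 CPM in WT, a log2 ratio of -0.30 (-0.45 to -0.15). Tk1 (thymidine kinase) gave 55.4 CPM in KO and 68.3 CPM in WT (-0.30, -0.47 to -0.13), and Pcna 223 and 256 CPM (-0.20, -0.29 to -0.11). At the other end were mitotic genes. Cenpa, the histone H3 variant of centromeres, stood at 291 CPM in KO and 234 CPM in WT (0.32, 0.23 to 0.40), Aspm, a spindle pole protein, at 77.9 and 61.8 CPM (0.34, 0.17 to 0.51) and Ccnb1, cyclin B1, at 43.2 and 36.0 CPM (0.26, 0.04 to 0.49). Aurkb, the kinase of the chromosomal passenger complex, went the other way at 42.0 CPM in KO and 48.9 CPM in WT (-0.22, -0.42 to -0.02). Mki67 stood at 415 and 420 CPM and Top2a, the topoisomerase that untangles chromosomes, at 454 and 446 CPM, with intervals that included 0. UMIs of these genes come from few cells, so intervals of gene ratios are too narrow throughout. None of the 27 other S phase genes and 2 of 43 other mitosis genes, both lower, were 1.5-fold apart over the class.

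What cycling CD8 T cells carried beyond the members was read from lists that did not enter the call. All 27 other S phase genes, all 43 other mitosis genes and all 12 replication-dependent histones measured were at least 1.5-fold higher in cycling than in other CD8 T cells, in KO and in WT alike. Over all measured genes 13.8% were that much higher and 16.6% that much lower in KO, and 14.1% and 17.1% in WT. The linker histone Hist1h1b stood at 1634 CPM in cycling and 24.4 CPM in other KO cells. The 3 members outside the call went with it: Stmn1, which destabilises microtubules, stood at 818 CPM in cycling and 57.2 CPM in other KO cells, against 901 and 56.8 CPM in WT. Hmgb2, a chromatin protein, gave 2797 CPM in cycling and 472 CPM in other KO cells, against 2812 and 518 CPM in WT. Fbxo5, an inhibitor of the anaphase-promoting complex, gave 112 and 5.58 CPM in KO, against 115 and 8.32 CPM in WT.

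Of 19 regulators of the G1 to S step, 12 were higher and 3 lower in cycling KO CD8 T cells, and 13 higher and 2 lower in WT. Of the 4 with the most UMIs, the D cyclin Ccnd2 stood at 126 CPM in cycling and 293 CPM in other KO cells and Ccnd3 at 101 and 161 CPM. Their partner kinase Cdk6 stood at 200.2 and 207 CPM, and Rbl2, a repressor of E2F targets, at 138 and 145 CPM. Of 9 measured cycle inhibitors 4 were higher and 4 lower in both libraries. Btg1, an antiproliferative factor, stood at 557 CPM in cycling and 1200 CPM in other KO cells, Btg2 at 209 and 336 CPM, Cdkn1b (p27) at 93.5 and 153 CPM and Cdkn2d (p19) at 72.9 and 36.8 CPM. Of the naive and memory genes 6 of 8 were lower and 0 higher in KO, and 5 of 7 lower in WT. Il7r, the interleukin 7 receptor, stood at 47.2 CPM in cycling and 168 CPM in other KO cells, and Klf2, a quiescence factor, at 22.8 and 97.3 CPM. The exhaustion genes were closer: 2 of 8 lower in KO and 1 of 8 in WT, with Tox at 319 and 330 CPM and Tnfrsf9 at 268 and 283 CPM in cycling and other KO cells. Of the cytotoxic genes 3 of 7 were lower in each library, among them Ccl5 at 2056 CPM in cycling and 7372 CPM in other KO cells, while Gzmb stood at 1204 and 1148 CPM.

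**Figure D2:**
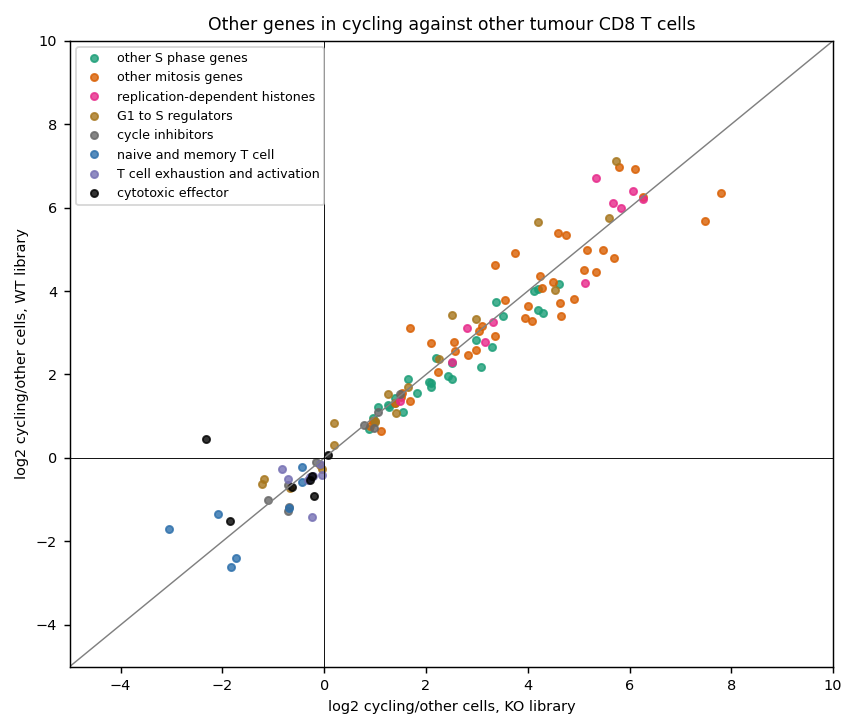
Log2 ratio of cycling over other tumour CD8 T cells in the KO library (x axis) and in the WT library (y axis) for genes of the other cycle lists and of the T cell state lists, 1 point a gene with at least 20 UMIs in both libraries and above 0 in both groups of cells; the grey line marks equal ratios. The S phase, mitosis and histone genes lie at the upper right, and the naive and memory genes below 0 on both axes.

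Regulatory T cells of the tumour, marked by Foxp3, were cycling in 53 of 242 KO cells (21.9%, 16.9 to 27.6) and 14 of 117 WT cells (11.97%, 6.70 to 19.3). The difference of 9.94 points (1.38 to 17.3) rests on 14 WT cycling cells, with 23 KO and 14 WT cells just under the threshold. It was 6.61 points (-0.431 to 12.6) at 1000 UMIs, 8.47 (-1.11 to 16.9) with the looser threshold and 7.87 (-0.631 to 15.2) with a mitochondrial limit of 20%, and those intervals included 0. KO cells were deeper, with median depths of 8113 UMIs in KO and 6629 UMIs in WT. Of the KO cycling cells, 18.9% were past the S threshold only, 35.8% past both and 45.3% past the mitosis threshold only.

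Of the 35 members 6 were at least 1.5-fold higher and 0 lower in KO regulatory T cells, where 6.83% of 9410 genes were higher and 11.7% lower. Equal weight for each cell gave 16 higher and 1 lower, and the per-cell marker gate 3 higher and 2 lower. The 6 include 4 MCM subunits. Mcm2 stood at 49.6 CPM in KO and 26.1 CPM in WT (0.92, 0.36 to 1.53), Mcm3 at 128 and 71.8 CPM (0.84, 0.50 to 1.19), Mcm6 at 143 and 85.7 CPM (0.73, 0.42 to 1.06) and Mcm4 at 93.8 and 59.6 CPM (0.65, 0.27 to 1.05). The other two were mitotic kinases: Plk1 at 36.3 CPM in KO and 13.9 CPM in WT (1.39, 0.64 to 2.22) and Cdk1 at 57.5 and 36.7 CPM (0.65, 0.16 to 1.16). Mcm4 turned to -0.04 when each cell had equal weight, and Plk1 to -0.05 after thinning. Mki67 went the other way, at 438 CPM in KO and 620 CPM in WT (-0.50, -0.63 to -0.37), although a Mki67 UMI was seen in 24.4% of KO and 11.97% of WT thinned cells. Pcna stood at 192 and 143 CPM (0.42, 0.17 to 0.68) and Top2a at 333 and 317 CPM (0.07, -0.10 to 0.25). Of the other S phase genes 8 of 27 were higher and 0 lower in KO, and of the other mitosis genes 0 of 42 were higher and 1 lower.

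Cycling KO regulatory T cells, which alone in the class were numerous enough for it, were compared with the other KO regulatory T cells. All 27 other S phase genes, all 41 measured mitosis genes and all 12 histones were higher, against 16.4% of all genes, and 5 of 6 measured cytotoxic genes and 4 of 8 exhaustion genes were lower, against 25.7% of all genes.

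Macrophages of the tumour (cluster 6, led by the complement genes C1qa and C1qc) were cycling in 9 of 89 KO cells (10.1%, 4.73 to 18.3) and 66 of 273 WT cells (24.2%, 19.2 to 29.7). The difference was -14.1 points (-21.2 to -4.78). It was -1.07 points when a single UMI of Mki67 or Top2a made the call, with 18.0% KO and 19.0% WT. The KO library held 113 such cells and the WT library 304, with 24 and 31 left out as shallow and median depths of 9853 and 13513 UMIs. Taken with the monocytic clusters 3 and 4, from which macrophages were not sharply divided, 10 of 787 KO phagocytes (1.27%) and 70 of 1123 WT phagocytes (6.23%) were cycling, -4.96 points (-6.63 to -3.31). Cluster 3, with 0 cycling cells, had 594 cells in KO and 299 in WT, and its part in the pooled value was not tested. With Mki67 or Top2a it was -1.53 points (-3.55 to 0.600). A gate on each cell's own markers in place of clusters gave 2.50% KO and 7.22% WT phagocytes.

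Of the 35 members 31 were at least 1.5-fold lower and 0 higher in KO macrophages, where 17.7% of 10099 genes were lower and 9.65% higher; the median log2 ratio of the members was -1.26. Once each cell was thinned, 13 were lower. The minimum of 20 UMIs then applied to the thinned counts, so fewer members could be measured. Among the replication genes, Pclaf, a PCNA-binding factor, stood at 20.2 CPM in KO and 96.8 CPM in WT (-2.26, -2.87 to -1.72), Tyms at 5.76 and 24.5 CPM (-2.09), Mcm7 at 7.92 and 33.5 CPM (-2.08) and Tk1 at 9.36 and 38.7 CPM (-2.05). Among the mitotic genes, Kif11, the motor that separates spindle poles, had 5 UMIs in KO and 138 UMIs in WT, 3.60 and 24.7 CPM (-2.78, -4.42 to -1.52). Top2a stood at 22.3 CPM in KO and 91.5 CPM in WT (-2.04, -2.61 to -1.51), Mki67 at 61.9 and 156 CPM (-1.34, -1.67 to -1.02) and Pcna at 143 and 226 CPM (-0.67, -0.89 to -0.45). Fbxo5 had 3 UMIs in KO and 92 in WT, a log2 ratio of -2.93 (-5.23 to -1.34). Stmn1 stood at 84.2 CPM in KO and 242 CPM in WT (-1.52, -1.81 to -1.25). The 4 members that were not 1.5-fold apart were Aurkb, Cenpf, Cdc20 and Ube2c, with log2 ratios from -0.48 to -0.21. Over the pooled phagocytes 30 of 35 members were lower (background 14.3% lower and 10.9% higher). There Ccna2, cyclin A2, stood at 1.77 CPM in KO and 9.41 CPM in WT (-2.41) and Stmn1 at 14.8 and 77.6 CPM (-2.39).

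In WT, where cycling macrophages were numerous enough, 31.8% were past the S threshold only, 24.2% past both and 43.9% past the mitosis threshold only. Macrophage markers were at 26547 CPM in cycling and 26452 CPM in other WT macrophages, while T cell markers were at 83.5 and 18.0 CPM with a median of 0 over cycling cells. All 26 other S phase genes and 40 of 41 other mitosis genes measured were higher in cycling cells, against 15.7% of all genes. Of the 8 macrophage state genes 6 were lower, against 8.32% of all genes. H2-Ab1, a chain of MHC class II, stood at 876 CPM in cycling and 2332 CPM in other WT macrophages and Spp1 (osteopontin) at 493 and 944 CPM, while C1qa stood at 4626 and 4112 CPM and Mrc1, the mannose receptor, at 609 and 513 CPM.

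**Figure D3:**
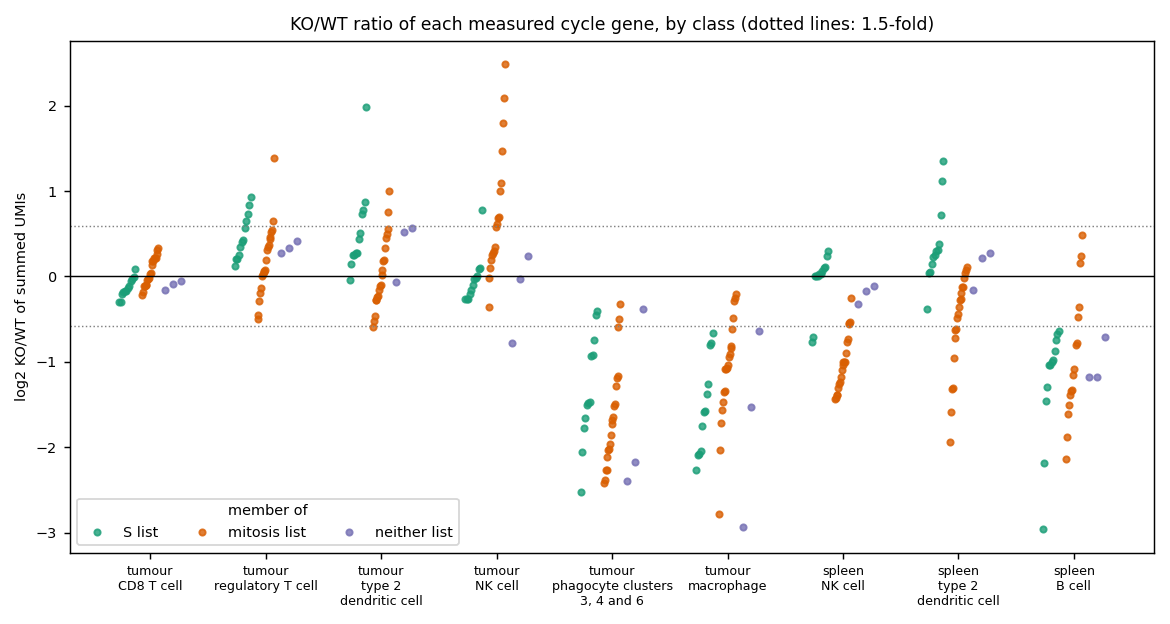
Log2 KO/WT ratio of summed UMIs (y axis) for each member with at least 20 UMIs over both libraries, in 9 classes (x axis); green points are S list members, orange the mitosis list and purple the 3 members outside both lists, and Cenpe of tumour NK cells, with 0 UMIs in WT, has no point. Members lie near 0 in CD8 T cells, below 0 in macrophages and phagocytes, and in spleen NK cells 16 of 20 orange and 2 of 12 green points lie below the lower dotted line, which marks 1.5-fold.

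Tumour NK cells cycled at a low rate, 33 of 730 KO cells (4.52%) and 5 of 137 WT cells (3.65%), 0.871 points apart (-3.91 to 3.60). With Mki67 or Top2a the shares were 8.49% KO and 2.92% WT (5.57 points, 0.864 to 8.44). Of the KO cycling cells 20 of 33 were past the mitosis threshold only. Of 34 measured members 11 were higher and 1 lower in KO, against 9.01% and 12% of all genes, and 10 of the 11 belong to the mitosis list. They rest on few UMIs: Cenpf, a kinetochore protein, had 106 UMIs in KO and 9 in WT, 19.0 and 9.51 CPM (1.00, 0.02 to 2.17). Cenpe, a kinetochore motor, had 77 UMIs in KO and 0 in WT, at least 4.36-fold higher in KO against a floor of 3 counts. Top2a stood at 57.6 and 58.1 CPM, Mki67 at 64.4 and 50.7 CPM, and Pcna at 101 and 95.1 CPM, each with an interval that included 0. After thinning 3 members were higher in KO, and fewer members could reach the minimum of 20 UMIs.

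Dendritic cells of both types were past the threshold in the tumour. Type 1 dendritic cells, marked by Xcr1 and Clec9a, were cycling in 24 of 80 KO cells (interval 20.3 to 41.3%) and 8 of 43 WT cells (18.6%, 8.39 to 33.4), with too few WT cells for a comparison. Melanoma markers stood at 229 CPM in cycling and 9.77 CPM in other KO cells of this class, macrophage markers at 132 and 33.8 CPM, and T cell markers in WT at 239 and 49.2 CPM. Their part in these shares was not tested. Type 2 dendritic cells, marked by Cd209a, were cycling in 20 of 198 KO cells (10.1%) and 14 of 195 WT cells (7.18%), 2.92 points apart (-2.77 to 8.67); without a mitochondrial limit the difference was 5.55 points (0.132 to 10.97). Of their 35 members 6 were higher and 1 lower in KO, against 7.72% and 9.74% of all genes, and under 5 other settings between 16 and 19 were higher. Rrm2, the small subunit of ribonucleotide reductase, stood at 12.9 CPM in KO and 3.26 CPM in WT (1.99, 1.08 to 2.99). It had under 100 UMIs over both libraries. Ccnb2, cyclin B2, stood at 31.1 and 15.5 CPM (1.00, 0.55 to 1.47), and Cenpf at 26.4 and 39.9 CPM (-0.60, -0.97 to -0.23). Mki67 stood at 84.1 and 61.7 CPM (0.45, 0.20 to 0.69). Migratory dendritic cells gave 3 of 96 KO and 1 of 73 WT cells, and plasmacytoid dendritic cells 0 of 95 and 0 of 75.

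Other tumour lymphocytes cycled rarely. B cells gave 5 of 90 KO cells (5.56%) and 6 of 155 WT cells (3.87%), and CD4 T cells 10 of 168 KO (5.95%) and 1 of 39 WT cells (2.56%). In B cells 15 of 29 measured members were lower and 0 higher in KO, where 29.7% of all genes were lower and 7.36% higher. In CD4 T cells 13 of 18 measured members were higher and 1 lower, against 15.7% and 15.4% of all genes, on low counts. Mki67 had 85 UMIs in KO and 11 in WT, and Stmn1 had 123 UMIs in KO and 0 in WT, at least 8.35-fold higher in KO against a floor of 3 counts per library. Subcluster 4, a mixed T cell group led by Klra7, gave 7 of 214 KO and 1 of 59 WT cycling cells, and 20 of its 28 measured members were higher and 0 lower in KO (background 11.5% and 13.8%). Counts were low here too: 7 of the 28 had a count of 0 in a library. The mitosis list held 886 UMIs in KO and 37 in WT.

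In tumour classes with almost no cycling cells the members gave small, mixed counts. Classical monocytes had 4 higher and 4 lower of 27 measured (background 7.63% and 7.86%), cluster 4 had 2 and 5 of 19 (8.98% and 14.7%), and migratory dendritic cells 0 and 2 of 17 (11% and 11.6%). Non-classical monocytes had 4 and 1 of 12 (10% and 9.49%), plasmacytoid dendritic cells 1 and 3 of 9 (9.37% and 10.5%), and neutrophils 3 and 1 of 7 (33.4% and 12%). A small cluster with melanoma genes and globin genes among its leaders gave 5 of 13 KO and 7 of 29 WT cycling cells. The whole-class levels of all members are set side by side in the heat map.

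**Figure D4:**
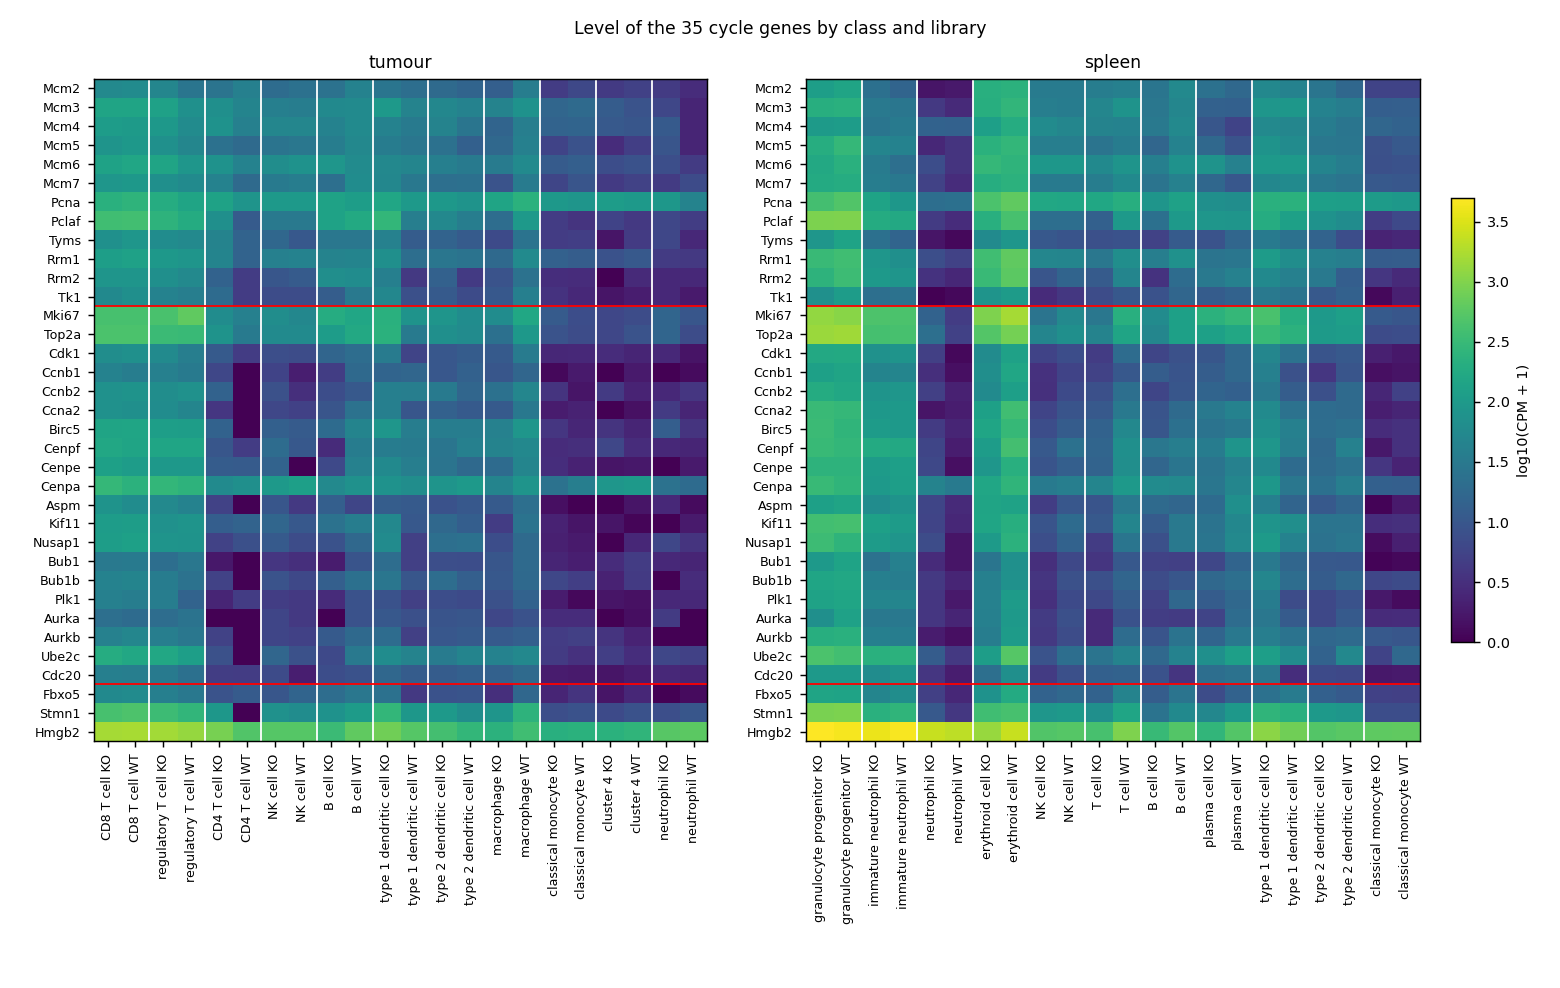
Level of each of the 35 members, as log10 of CPM plus 1 (colour), in tumour (left) and spleen (right) classes, with KO left of WT for each class; red lines divide the S list, the mitosis list and the 3 members in neither. Colours compare classes along a row and not genes within a column; in the spleen, progenitors and erythroid cells are the brightest columns.

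In the spleen NK cells held the most cells called cycling, 74 of 246 in KO (30.1%) and 39 of 156 in WT. Of these NK cells, 49 in KO and 26 in WT lay just at the threshold. The highest share past the threshold was that of granulocyte progenitors. Granulocyte progenitors, marked by Mpo and Elane, were cycling in 36 of 38 KO cells (94.7%, 82.3 to 99.4) and 11 of 11 WT cells (100%, 71.5 to 100). Pclaf and Top2a were themselves among the leading genes of that cluster. Immature neutrophils, marked by Camp, Ngp and Ltf, were cycling in 69 of 330 KO cells (20.9%, 16.6 to 25.7) and 9 of 42 WT cells (21.4%, 10.3 to 36.8). Mature neutrophils gave 2 of 950 KO cells (0.211%) and 0 of 1526 WT cells, which allows up to 0.197% by 3 counts of the total and 0.241% by the exact limit. In them 13 of 17 measured members were higher in KO and 0 lower (background 6.47% and 7.46%), on few UMIs: Top2a had 68 in KO and 21 in WT, and its ratio changed sign with other mitochondrial limits. Equal weight for each cell gave 5 higher and 2 lower of 17, a limit of 20% 4 higher of 9 measured, no limit 2 higher and 3 lower of 15, and thinning 3 higher of 7. The share thus stepped down from progenitor to mature cell in each library. Neither precursor class had 50 WT cells, so genotypes were not compared, but the values lay close: Mki67 at 456 CPM in KO and 444 CPM in WT immature neutrophils, and Top2a at 410 and 424 CPM. In the progenitors Mki67 stood at 1276 CPM in KO and 1095 CPM in WT. The libraries differed in numbers, with 334 KO and 43 WT immature neutrophils and 38 KO and 11 WT progenitors.

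Of the KO cycling cells, 24 of 36 progenitors (66.7%, 49.0 to 81.4) and 29 of 69 immature neutrophils (42.0%, 30.2 to 54.5) were past both thresholds. Past the mitosis threshold only were 11 of 36 progenitors (30.6%, 16.3 to 48.1) and 36 of 69 immature neutrophils (52.2%, 39.8 to 64.4). Both pairs of intervals overlap. In WT, 6 of 11 progenitors and 6 of 9 immature neutrophils were past both thresholds, and 3 of each past the mitosis threshold only. In immature KO neutrophils Stmn1 stood at 637 CPM in cycling and 10.3 CPM in other cells, Fbxo5 at 138 and 1.37 CPM, and Hmgb2 at 7129 and 2218 CPM. All 12 granulocyte maturation genes were measured, with 5 higher and 4 lower in cycling cells, against 35.1% higher and 14.9% lower of 7963 genes. Retnlg, a late granulocyte gene, stood at 115 CPM in cycling and 2460 CPM in other cells, and Ltf (lactoferrin) at 13834 and 21763 CPM. Ngp stood at 42468 and 43572 CPM and Camp at 37446 and 31427 CPM.

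**Figure D5:**
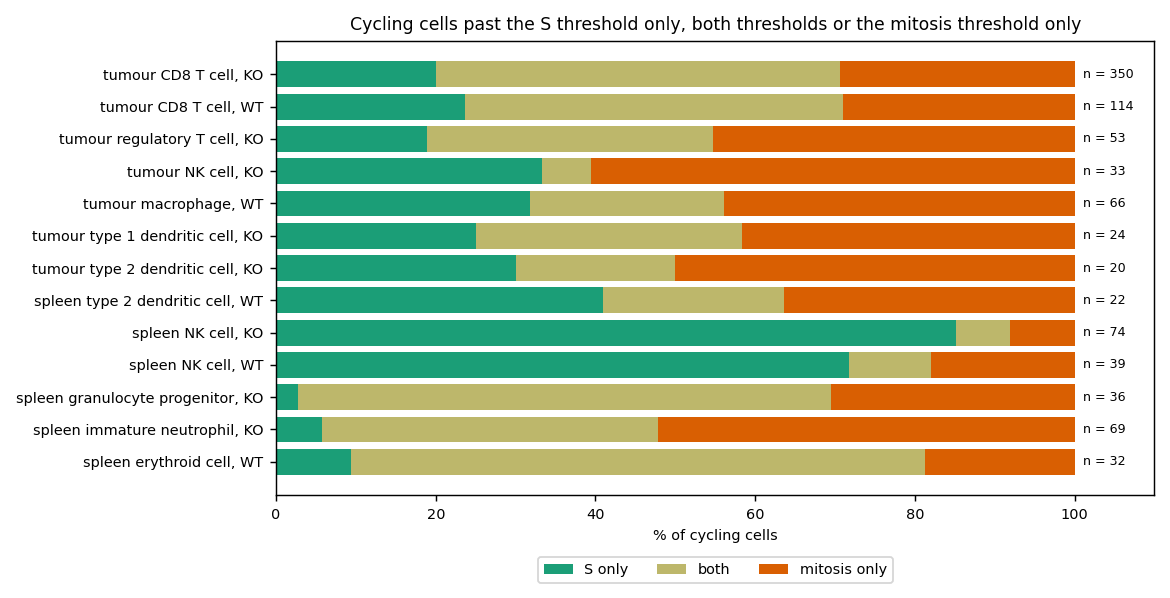
Share of cycling cells (x axis, percent) past the S threshold only (green), both thresholds (khaki) or the mitosis threshold only (orange), for classes and libraries with at least 20 cycling cells; n is the number of cycling cells. Spleen NK cells are mostly green, at 85.1% in KO and 71.8% in WT, and granulocyte progenitors mostly khaki.

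Spleen NK cells were the largest spleen class with cycling cells, 74 of 2379 KO cells (3.11%) and 39 of 1162 WT cells (3.36%), -0.246 points apart (-1.60 to 0.937). The call in them was mostly an S call. Past the S threshold only were 63 of 74 KO cells (85.1%, 75.0 to 92.3) and 28 of 39 WT cells (71.8%, 55.1 to 85.0), against 70 of 350 KO and 27 of 114 WT cells among tumour CD8 T cells. Near the threshold lay more cells than past it, 172 KO and 73 WT cells just under. Most of the called cells were just at it, 49 in KO and 26 in WT. Thinned NK cells held a mean of 1.03 S list UMIs in KO and 0.978 in WT, against 0.278 and 0.351 in tumour classical monocytes. The background of the call was not read from NK cells. With the stricter threshold 50.0% of the KO cycling cells were past S only. The share past the mitosis threshold was 0.462% in KO and 0.947% in WT, -0.484 points apart (-1.25 to 0.0693).

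In the summed UMIs of spleen NK cells the mitosis genes were lower in KO and most S genes were not. Few cells lay behind the mitosis calls. Past both thresholds were 5 KO and 4 WT cells, and past the mitosis threshold only 6 KO and 7 WT cells. Of 35 members 18 were at least 1.5-fold lower and 0 higher in KO, where 4.65% of 11330 genes were lower and 3.75% higher. They were 16 of 20 mitosis genes, with a median of -1.02, and 2 of 12 S genes, with a median of 0.03. Mki67 stood at 25.5 CPM in KO and 54.3 CPM in WT (-1.09, -1.34 to -0.84), Ube2c, the ubiquitin-conjugating enzyme of the anaphase-promoting complex, at 7.81 and 21.0 CPM (-1.43, -1.86 to -1.002), Cenpf at 9.73 and 22.9 CPM (-1.23, -1.63 to -0.84), and Kif11 at 8.19 and 18.6 CPM (-1.18, -1.61 to -0.75). Nusap1, a spindle microtubule protein, stood at 6.75 and 13.5 CPM, and Top2a at 46.9 and 69.2 CPM (-0.56, -0.76 to -0.36). Pcna, by contrast, stood at 164 CPM in KO and 152 CPM in WT (0.11, -0.01 to 0.24), and Mcm4 at 60.6 and 49.3 CPM (0.30, 0.09 to 0.51). Rrm2 was the S gene with the lowest ratio, at 8.48 and 14.4 CPM (-0.77, -1.22 to -0.31). Bub1 and Bub1b, kinases of the spindle checkpoint, stood at 2.12 and 2.70 CPM in KO, against 5.25 and 7.31 CPM in WT (-1.31 and -1.44). Aurka, the Aurora kinase of the spindle poles, stood at 3.47 CPM in KO and 6.93 CPM in WT, and Mcm5, a subunit of the MCM helicase, at 37.9 and 37.1 CPM. The erythroid markers stood at 1226 CPM in cycling and 35.8 CPM in other KO NK cells, and at 85.3 and 404 CPM in WT, with a median of 0 over the cycling cells of each library. Their part in these counts was not tested. With each cell thinned, 8 of the members were lower in KO, and fewer members could reach the minimum of 20 UMIs. Summed, the mitosis list had 1928 UMIs in KO and 1772 in WT, 186 and 332 CPM (-0.84, -0.93 to -0.74), and the S list 545 and 519 CPM (0.07, 0.00 to 0.13). Of the lists not used in the call, 15 of 41 other mitosis genes were lower and 0 higher in KO, and 3 of 27 other S phase genes were higher and 0 lower.

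Spleen type 2 dendritic cells were cycling in 18 of 269 KO cells (6.69%) and 22 of 368 WT cells (5.98%). Of 35 members 3 were higher in KO, all S genes, and 8 lower, all mitosis genes (background 6.1% and 5.63%). Rrm2 stood at 30.2 CPM in KO and 11.8 CPM in WT (1.35, 0.84 to 1.87) and Ube2c at 13.5 and 51.6 CPM (-1.94, -2.47 to -1.44). With the per-cell marker gate 18 members were higher and 0 lower, so these counts turn with how the class is drawn. Type 1 dendritic cells gave 11 of 41 KO (26.8%) and 8 of 45 WT cells (17.8%).

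Erythroid cells of the spleen, which the CD45 sort would leave few of, were cycling in 9 of 53 KO cells (16.98%, 8.07 to 29.8) and 32 of 78 WT cells (41.03%, 30.01 to 52.7), -24.0 points apart (-37.6 to -8.08). Under 2000 UMIs lay 76 KO and 80 WT cells of the cluster. The erythroid markers stood at 40117 CPM in KO and 223869 CPM in WT cells that were not cycling, and macrophage markers at 8776 and 4305 CPM; in cycling cells macrophage markers stood at 62.3 CPM in KO and 185 CPM in WT. The part of these in the difference was not tested. With a gate on each cell's own markers the shares were 7 of 10 KO cells and 28 of 51 WT cells (15.1 points, -17.8 to 38.6), and with cycle genes allowed in the clustering 25.2% and 32.3%. Of 35 members 25 were lower and 0 higher in KO, against 13.9% and 31.4% of all genes. Ube2c stood at 114 CPM in KO and 528 CPM in WT (-2.21, -2.61 to -1.83), and Mki67 at 949 and 1571 CPM (-0.73, -0.87 to -0.59).

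Spleen B cells gave 4 of 247 KO cells (1.62%) and 7 of 187 WT cells (3.74%), and T cells 9 of 189 KO (4.76%) and 6 of 76 WT cells (7.89%). In both classes members were lower in KO: 26 of 31 measured in B cells (background 9.39% lower and 6.11% higher) and 18 of 24 in T cells (background 11.2% lower and 9.03% higher), with 0 higher. Top2a of B cells stood at 48.1 CPM in KO and 126 CPM in WT (-1.39, -1.79 to -0.998), and Mki67 of T cells at 28.5 and 213 CPM (-2.90, -3.52 to -2.32). With 4 to 9 cycling cells behind each value, single cells could move these ratios, and the share differences of -2.12 points in B cells (-6.03 to 1.00) and -3.13 points in T cells (-11.7 to 2.71) included 0. Classical monocytes of the spleen gave 4 of 873 KO (0.458%) and 3 of 1536 WT cells (0.195%), non-classical monocytes 2 of 394 (0.508%) and 13 of 1068 (1.22%), and plasma cells 7 of 84 and 3 of 36. Of the members, 3 were higher and 5 lower of 31 measured in classical monocytes (background 4.05% and 4.93%), 0 and 7 of 25 in non-classical monocytes (4.97% and 5.91%), and 0 and 2 of 4 in cluster 6, a shallow group of neutrophil-like cells (8.13% and 10%).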

How the data were processed

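UMI counts per gene and barcode were deposited by the authors for 4 libraries (10x 3′ v3.1, 16000 cells loaded each). The deposited counts come from Cell Ranger 6.0.0 per the file headers, while Cell Ranger 3.1, Seurat 3.1.4 and mm10 stand in the submitters' processing notes. Libraries held 46499361 to 63560706 UMIs. Barcodes under 200 genes or 500 UMIs, or over 10% mitochondrial UMIs, were left out, and doublets (3.21% to 6.03% marked) were removed with an own implementation of Scrublet's method. Clusters (2000 variable genes without the listed cycle genes, 30 components, 15 neighbours, Leiden resolution 1.0) were named from marker lists. Each cell was thinned to 2000 UMIs for the cycling call. Shares have exact Clopper-Pearson 95% intervals, their differences Newcombe intervals, and ratios of UMIs exact conditional intervals. A share of 0 has the limit that 3 counts allow. Depth sets their width, and they cover counting error only. A gene was measured with at least 20 UMIs over both libraries and called at 1.5-fold; a class was compared with at least 50 cells in both. With 1 library a group no test was run. The ratio intervals and the call were tested on data simulated from tumour CD8 T cells. Cells for the test of the call were drawn from profiles of KO cells that the same call had sorted. That test did not cover other classes or spread between the cells of a profile.

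Named were all 35 members, with up to 6 of the largest ratios a class among members with at least 100 UMIs, and Mki67, Top2a and Pcna; of other lists, counts and the 4 genes with most UMIs. The members and lists were chosen with earlier results of these data known. Member levels within cycling cells are not reported, since the same UMIs made the split. Alternatives changed the threshold, thinning, filters, clustering, gating and gene scaling. Python 3.11.15, numpy 2.4.6, scipy 1.17.1, pandas 2.3.3, igraph 0.11.9 and leidenalg 0.10.2 were used.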

Additional observations from a re-analysis of the deposited data

Results flagged for a closer look

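In 3 of the 6 classes compared in both organs, the KO minus WT difference in the share of cycling cells had opposite signs in tumour and spleen, and that contrast was not tested. B cells differed by 1.68 points in the tumour and by -2.12 points in the spleen. NK cells differed by 0.871 points in the tumour and by -0.246 points in the spleen. Non-classical monocytes differed by 0.0621 points in the tumour and by -0.710 points in the spleen. Each of these 6 intervals included 0.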

How the results depend on the processing

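Of the main results under other settings, 441 values were counted as unchanged, 80 as moved and 5 as turned in sign. Of single genes, 17 were counted as turned in sign. Those 5 do not hold every change of sign, and values outside them need not have kept their direction. The KO minus WT share of spleen NK cells, -0.246 points in the main setting, was positive with the looser threshold. That of spleen classical monocytes, 0.263 points in the main setting, was negative without thinning. Their median depths were 10794 UMIs in KO and 13114 UMIs in WT. The cause of these changes of sign was not tested. No paired analysis was possible because each group is 1 library. The gate on tumour monocytes and macrophages was applied to the pooled phagocytes only.

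For shares, in points of KO minus WT, a UMI of Mki67 or Top2a gave 5.57 in tumour NK cells, 0.860 in classical monocytes, -1.07 in macrophages, -1.53 in phagocytes and 6.86 in all tumour cells. Another clustering seed gave -2.60 in tumour classical monocytes and -8.70 in spleen cluster 6, and keeping doublets -2.51 in the monocytes. Class weights of the KO library gave 0.385 in tumours and -0.454 in spleens, and those of the WT library -0.244 and -0.387. Cycle genes in the clustering gave -7.06 in erythroid cells. The looser threshold gave 8.56 in tumour CD4 T cells, 1.41 in spleen NK cells and 2.84 in all spleen cells, and the stricter one 3.57 in all tumour cells. A mitochondrial limit of 20% gave -1.29 in cluster 4, and no limit -1.33 in tumour classical monocytes. Without thinning, tumour values were 16.6 in B cells, 18.6 in CD4 T cells, 4.73 in classical monocytes, 7.62 in cluster 4, -21.4 in macrophages, 8.99 in migratory and 4.17 in plasmacytoid dendritic cells, -2.65 in phagocytes and 15.8 in all cells. Spleen values without thinning were -8.77 in B cells, -8.40 in classical and -6.41 in non-classical monocytes, -3.26 in type 2 dendritic cells and -0.571 in all cells. Values without thinning used the same thresholds on each cell's full count, so depth was not matched in them. The per-cell gate gave 3.42 in spleen classical monocytes and 15.1 in erythroid cells. The S-only phase was 50.0% in KO spleen NK cells with the stricter threshold. It was 13.8% in KO CD8 T cells at 1000 UMIs, a setting that also used the looser threshold.

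For counts of members, thinning gave 1 higher and 1 lower in CD8 T cells, 2 lower in regulatory T cells, 13 lower in macrophages, 18 lower in phagocytes, 3 higher and 0 lower in tumour NK cells, 2 higher in tumour type 2 dendritic cells, 1 higher and 8 lower in spleen NK cells, 3 higher in spleen neutrophils and 2 lower in spleen type 2 dendritic cells. Equal weight for each cell gave 16 higher and 1 lower in regulatory T cells, 1 higher in macrophages and in phagocytes, 2 lower in tumour type 2 dendritic cells, and 5 higher and 2 lower in spleen neutrophils. In tumour type 2 dendritic cells 18 were higher and 0 lower with another seed or doublets kept, 19 and 0 with a limit of 20% or none, and 16 and 0 with the gate. In spleen neutrophils 1 was lower with another seed, doublets kept or the gate, 4 were higher at 20%, 2 higher and 3 lower without a limit, and 27 higher and 3 lower without a UMI minimum. In regulatory T cells 1 was lower at 20%, 2 lower without a limit, and 3 higher and 2 lower with the gate. Spleen type 2 dendritic cells had 5 lower at 20% or without a limit, and 18 higher and 0 lower with the gate. The gate gave 6 higher in tumour NK cells and 3 higher and 2 lower in erythroid cells.

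Log2 ratios counted as turned in sign were Mcm4 at -0.042 (equal weight) and Plk1 at -0.048 (thinned) in regulatory T cells. In tumour type 2 dendritic cells they were Mcm5 at -0.022 and Cenpf at 1.20 (thinned) or 0.41 (gate). In spleen neutrophils Mki67 was -0.30 (equal weight), -0.50 (20%) and -0.22 (no limit) and Top2a -0.38 and -0.87. With the gate, erythroid cells gave 0.45 for Mki67, 0.49 for Top2a and 0.37 for Pcna, and spleen type 2 dendritic cells 0.072 for Ube2c, 2.88 for Cenpf and 2.64 for Mki67, which was 0.14 thinned.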

Other observations

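Replication-dependent histone genes, whose messages are mostly but not only made in S phase, were lower in KO in some tumour myeloid classes with few or no cycling cells. In classical monocytes 8 of 10 measured histone genes were at least 1.5-fold lower, with a median log2 ratio of -1.48 and a summed level of 133 CPM in KO and 364 CPM in WT. In cluster 4, 8 of 9 were lower (median -1.68, 131 CPM in KO and 430 CPM in WT), in migratory dendritic cells 9 of 9 (-0.89, 198 and 403 CPM) and in non-classical monocytes 6 of 8 (-1.44, 258 and 500 CPM). No histone gene was higher in these 4 classes. Over all genes, 7.86%, 14.7%, 11.6% and 9.49% were lower in the same 4 classes. In CD8 T cells 1 of 12 was lower (median -0.03, background 7.34%), and in spleen classical monocytes 2 of 11 (-0.02, 4.93%). Plasmacytoid dendritic cells had 1 of 4 higher and 1 lower (background 9.37% and 10.5%). Tumour neutrophils had 2 of 7 higher and 3 lower (-0.51, 33.4% and 12%), and tumour type 2 dendritic cells 2 of 11 higher and 3 lower (-0.31, 7.72% and 9.74%). Tumour macrophages, with more cycling cells, had 11 of 11 lower (-2.82, background 17.7%). Tumour NK cells had 4 of 11 lower and 0 higher (-0.48, background 12% lower). T cell subcluster 4 went the other way, with 7 of 11 higher and 0 lower (1.54, background 11.5% higher). Its summed level was 497 CPM in KO and 343 CPM in WT, on 976 and 166 UMIs. Of its 11 measured histone genes, 2 had a count of 0 in a library. The histone genes were chosen after their values were seen, and the part of RNA from dividing cells was not tested.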
